A study of Mus musculus with 3 samples.

Results

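Lymphatic endothelial cells were examined among endothelial cells sorted from mouse gastrocnemius, a calf muscle, and profiled by droplet single-cell RNA sequencing. They were chosen by measured values, as barcodes with at least 300 detected genes, at most 10% mitochondrial UMIs and at least 3 UMIs summed over 6 lymphatic marker genes (Prox1, Lyve1, Mmrn1, Reln, Pdpn and Thy1). This gate found 75 of the 11554 barcodes that passed the filters on genes and mitochondrial UMIs, from 11715 barcodes in all. The running library gave 41 of these cells, the sedentary library 10 and the untreated library 24. Every library came from C57BL/6N mice, and all cells were sorted as CD31+, CD45- and negative for the dead-cell dye SYTOX blue. The running mice were housed alone with a wheel for 14 days, and the sedentary mice were housed alone without one. The untreated library was labelled as having no treatment. The sources used here do not give its housing, nor how many animals went into any library. Each group was 1 library, so differences between groups have no replicate check. In every comparison of groups, including running against sedentary, library or batch and group cannot be told apart.

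Lymphatic capillaries take up fluid, proteins and migrating immune cells from a tissue and pass them to collecting vessels with valves. Their endothelium arises from veins in the embryo under the transcription factor Prox1, grows in response to VEGF-C through the receptor VEGFR-3 (Flt4) and secretes CCL21, the chemokine that draws dendritic cells and T cells carrying CCR7. In muscle, lymphatic vessels are sparse beside a dense bed of blood capillaries.

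Ccl21a and Flt4 were not used by the gate and so served as checks on it, and Mmrn1 is a gate gene. Their upstream sequences are shown because these 3 genes mark the cells by 3 roles: a secreted chemokine, a growth factor receptor and a matrix protein. Each line holds the 250 bases before the RefSeq start site on the gene's own strand (build GRCm38.p6). Capitals mark GGAA, the core letters bound by ETS factors, ACAAT, a core of SOX sites, and GATAA, a core of GATA sites, on either strand.
Ccl21a, chr4:42773992-42774241, minus strand: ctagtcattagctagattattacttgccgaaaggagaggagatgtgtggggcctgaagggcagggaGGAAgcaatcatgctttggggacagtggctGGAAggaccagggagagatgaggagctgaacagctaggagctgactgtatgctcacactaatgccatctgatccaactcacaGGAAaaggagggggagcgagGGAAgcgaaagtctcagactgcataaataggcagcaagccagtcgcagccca
Mmrn1, chr6:60944067-60944316, plus strand: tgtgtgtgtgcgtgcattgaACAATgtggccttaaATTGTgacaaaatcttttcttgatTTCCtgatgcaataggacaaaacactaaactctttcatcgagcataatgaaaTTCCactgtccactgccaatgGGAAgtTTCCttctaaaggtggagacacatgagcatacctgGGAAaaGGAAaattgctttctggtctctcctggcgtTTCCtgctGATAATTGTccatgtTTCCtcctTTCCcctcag
Flt4, chr11:49609429-49609678, plus strand: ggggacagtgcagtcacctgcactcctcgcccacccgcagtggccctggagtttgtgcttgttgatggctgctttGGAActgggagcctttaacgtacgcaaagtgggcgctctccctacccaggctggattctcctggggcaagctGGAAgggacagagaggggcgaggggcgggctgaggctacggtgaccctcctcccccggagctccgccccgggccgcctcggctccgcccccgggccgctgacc

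GGAA occurred 4 times in the Ccl21a window, 9 times in the Mmrn1 window and 2 times in the Flt4 window. ACAAT occurred 3 times and GATAA once in the Mmrn1 window, where 1 match of each overlaps the other, and neither was present in the other windows. These letters are common: GGAA was found in 93.4% of 32851 mouse promoter windows of this length, ACAAT in 27.7% and GATAA in 22.6%. Of the genes named below as highest in the gated cells, 10 had an entry in the promoter table. GGAA was present upstream of 10 of these, ACAAT of 2 and GATAA of 2. In the GENCODE M21 annotation of GRCm38, Ccl21a lies at chr4:42772860-42773993 on the minus strand, Mmrn1 at chr6:60924976-60989378 and Flt4 at chr11:49609263-49652739, both on the plus strand. The RefSeq start sites used for Mmrn1 and Flt4, and their windows, therefore lie within the GENCODE gene spans. The Flt4 window lies close to the start of its span, and the Mmrn1 window lies far inside its own. The Mmrn1 window may thus be gene body and not promoter for transcripts that begin at the GENCODE start. Which start these cells use was not tested.

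The label was checked on Ccl21a and Flt4. Ccl21a, which the gate did not read, was detected in 37 of 41 running, 9 of 10 sedentary and 19 of 24 untreated gated cells, 65 of 75 in all, against 13.9%, 1.80% and 0.697% of other cells. Flt4 was detected in 28 of 41, 5 of 10 and 18 of 24 gated cells, against 10.1%, 8.01% and 8.51% of other cells. Pan-endothelial genes were present but low: the summed level of 8 endothelial markers was 3356 CPM (UMIs scaled to a common total for each sum of cells) in running, 3910 in sedentary and 3148 in untreated gated cells, against 7782, 8460 and 6617 CPM in all other kept barcodes of the same libraries. Macrophage markers were at or near 0 in the gated cells: 1 UMI in the running library over 9 genes, and none in the other libraries. Ptprc, which encodes CD45, was at 0 in all 75 cells and had 3, 0 and 0 UMIs in other cells, after a sort for CD45- cells. Of 5 T-cell markers, Cd3e, Cd3d and Cd3g were at 0 in every gated cell, but also in other cells save for 1 Cd3d UMI. The other 2, Cd2 and Lck, summed to 5, 0 and 6 UMIs in gated cells. The list thus stood at 38.5, 0 and 73.2 CPM in gated cells, against 6.04, 4.15 and 4.32 CPM in other cells. Thy1, a gate gene, is also expressed by T cells.

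**Figure D1:**
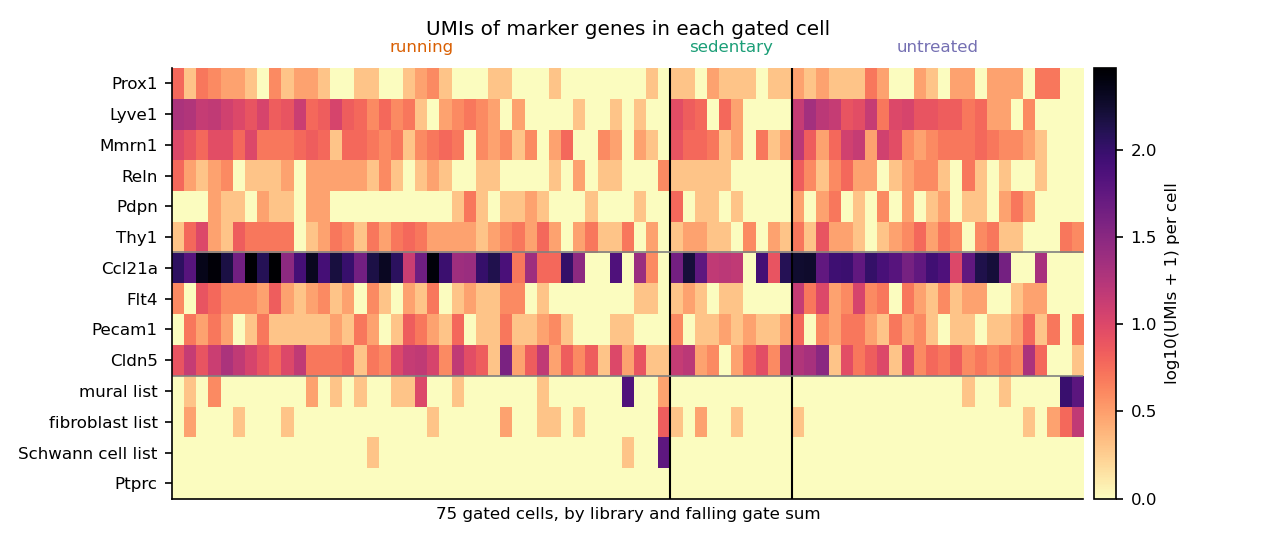
UMIs of each gate gene, of Ccl21a, Flt4, Pecam1 and Cldn5, of 3 marker lists of other cell types and of Ptprc (rows) in each of the 75 gated cells (columns), as log10(UMIs + 1). Cells run by library and then by falling gate sum; Ccl21a fills most columns, while high mural or Schwann sums stand at the low end of the running and untreated libraries.

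A few gated cells carried transcripts of other cell types. The summed level of 8 mural markers was 715.9 CPM in running, 0 in sedentary and 1903 CPM in untreated gated cells, against 413.2, 255.8 and 376.1 CPM in other cells. Most of it came from 3 cells with 70, 59 and 95 mural UMIs, 1 in the running and 2 in the untreated library. None of these 3 cells had a Ccl21a UMI, and each had entered the gate through Thy1 alone. Another cell, from the running library, had 57 UMIs over a list of 5 Schwann cell markers and entered through 3 Reln UMIs. Rgs5, a pericyte gene, was fitted by edgeR as higher in gated than in other cells (log2 fold change 1.06 ± 0.21 SE). Here and below, this SE is the absolute log2 fold change divided by the square root of the test's F statistic. It is not computed from the spread of the library ratios. The Rgs5 call was lost without the untreated library (-0.36), and DESeq2 gave -0.20 ± 1.43. Of its 110 UMIs, 102 were in the 3 mural-marked cells. Without the 10 gated cells that lacked Ccl21a, Rgs5 was lower (log2 fold change -2.50, edgeR adjusted p = 5.0e-07). Fibroblast markers summed to 123.2, 193.1 and 280.6 CPM in gated cells against 132.0, 38.9 and 28.5 CPM in other cells. They stood at 877.3 CPM in the 10 gated cells without Ccl21a and at 74.7 CPM in the 65 with it. The cells with 59 and 95 mural UMIs had 14 and 5 UMIs of the fibroblast list, and the Schwann-marked cell had 6. Of 9 genes on that list, Lum and Pi16 were at 0 in every gated cell, at levels in other cells of at most 0.690 and 6.38 CPM in any library. Gsn, the gelsolin gene, was detected in 8 of 41, 2 of 10 and 4 of 24 gated cells against 2.40%, 0.424% and 0.651% of other cells. The collagen gene Col1a2 stood at 15.4, 0 and 85.4 CPM in gated cells against 13.3, 2.88 and 4.71 CPM in other cells. Some cells lacking Ccl21a had several lymphatic genes: in the untreated library 1 had Lyve1, Mmrn1, Pdpn and Flt4, and another had Prox1, Mmrn1, Pdpn and Flt4.

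The gated cells differed widely in the amount of Ccl21a. The median was 76 UMIs per cell in running, 28.5 in sedentary and 54 in untreated gated cells, with maxima of 295, 158 and 181 UMIs. Ccl21a made up 2.89% of all UMIs of the running gated cells, 2.495% of the sedentary and 1.91% of the untreated, and up to 10.1% of the UMIs of 1 cell. Lyve1, the hyaluronan receptor gene of lymphatic capillaries, was detected beside Ccl21a in 53 cells, while 12 cells had Ccl21a with no Lyve1 UMI, 1 had Lyve1 without Ccl21a and 9 had neither. Foxc2, a transcription factor of collecting vessels and valves, was found in 9 gated cells, of which 8 had Ccl21a and 8 had Lyve1. Cldn11, a claudin gene expressed in lymphatic valves, was also found in 9 cells, 7 with Ccl21a and 5 with Lyve1. At a median of 2811, 1934.5 and 3135.5 UMIs per gated cell, an absent UMI does not show an absent transcript, so these counts do not divide the cells into kinds.

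The gate genes themselves describe the chosen cells and were not tested. By that rule every gated cell had at least 3 of their UMIs, and 68 of the 75 cells held at least 2 different gate genes, 54 at least 4 and 13 all 6. Lyve1 stood at 1478 CPM in running, 1255 in sedentary and 1891 in untreated gated cells, against 2.93, 0.541 and 0.254 CPM in other cells. Mmrn1, which encodes the matrix glycoprotein multimerin 1, stood at 1116, 1496 and 1354 CPM, against 2.93, 0.541 and 1.14 CPM in other cells. Prox1 stood at 307.9, 434.4 and 426.99 CPM, against 1.21, 0.541 and 1.91 CPM, and Reln, which encodes the secreted glycoprotein reelin, at 361.8, 241.3 and 475.8 CPM, against 1.55, 0.721 and 0.254 CPM. Thy1 and Pdpn, surface glycoproteins shared with fibroblasts, stood at 854.5, 627.5 and 646.6 CPM and at 192.5, 386.1 and 329.4 CPM. Barcodes just inside and just outside the threshold were few: 1, 0 and 1 cells had exactly 3 gate UMIs, and 5, 3 and 7 had exactly 2, while the gated cells had medians of 11, 7.5 and 17 and maxima of 39, 23 and 42.

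Gated cells were a small share of each library and the largest share in the running one. They made up 1.28% of 3212 kept barcodes in the running library (exact Clopper-Pearson 95% interval 0.918% to 1.73%), 0.249% of 4016 in the sedentary library (0.119% to 0.457%) and 0.555% of 4326 in the untreated library (0.356% to 0.824%). The running share exceeded the sedentary share by 1.03 percentage points (95% interval 0.612 to 1.50, from both exact intervals by the square-and-add method), and the running and untreated intervals did not overlap either. The gate fixes these counts and there is 1 library per group, so no test was made, and the intervals cover counting error only. Libraries also differed in depth, with medians of 1517, 1134 and 1583 UMIs per other barcode. When every barcode was thinned to 1000 UMIs, which left out 872, 1800 and 777 shallower barcodes, the shares were 1.20%, 0.226% and 0.535%. A sort on CD31 sets which cells can enter, so these are shares of sorted barcodes and not of the muscle.

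**Figure D2:**
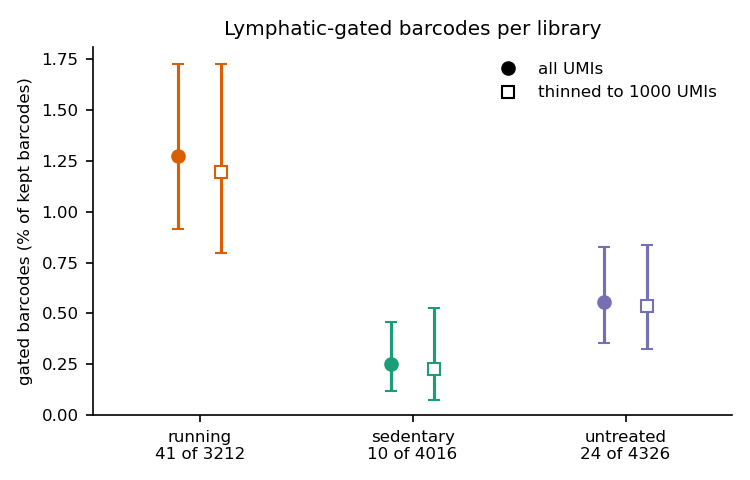
Percentage of kept barcodes that passed the lymphatic gate in the running, sedentary and untreated libraries, from all UMIs (filled circles) and after thinning each barcode to 1000 UMIs (open squares), with exact 95% intervals for counting error. The running library stands at 1.28% and 1.20%, above the sedentary library at 0.249% and 0.226%.

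Ccl21a was also found outside the gate, and most of all in the running library. It had 754 UMIs in running, 74 in sedentary and 31 in untreated other cells, which is 237.8, 18.5 and 7.21 UMIs per 1000 cells. A Ccl21a UMI was present in 13.9% of running, 1.80% of sedentary and 0.697% of untreated other cells, against 90.2%, 90.0% and 79.2% of gated cells. In the running library 268 of the 754 UMIs were in 3 barcodes with at least 10 each, and 394 other cells had exactly 1. Lyve1 had 17, 3 and 2 UMIs in other cells, Mmrn1 17, 3 and 9 and Reln 9, 4 and 2, each most in the running library. The other gate genes had most in the untreated library, with 7, 3 and 15 UMIs for Prox1, 0, 1 and 5 for Pdpn and 24, 10 and 25 for Thy1. The gate itself limits all 6 genes outside it. The library with most gated cells was therefore also the one with most Ccl21a in other cells, and the part of free RNA in it was not tested. Flt4 was spread more evenly over libraries, with 355, 328 and 395 UMIs in other cells, and stood at 523.5, 289.6 and 829.6 CPM in gated cells against 61.2, 59.1 and 50.2 CPM in other cells. No gated barcode was among the 20 to 32 barcodes that any pair of libraries shared.

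Which genes beyond the gate set these cells apart was asked by summing UMIs over gated and over other cells within each library and comparing the sums with edgeR's quasi-likelihood test, with library as a block. Of 13202 genes tested, 482 were higher in gated cells (3.65% of genes) and 598 were lower (4.53%), or 8.18% in either direction, at an adjusted p under 0.05. Because the gate chose the cells, these tests say how barcodes so chosen differ and not whether such a class exists. Gated cells were also deeper than other cells, with medians of 1384, 1095 and 1461 detected genes against 942, 752 and 950. Against other cells matched on total UMIs, 378 genes were higher and 459 lower of 9172 tested. Without the running library, which held most gated cells, the counts were 178 higher and 262 lower, and without the untreated library 249 and 338. DESeq2, whose scaling put the median log2 fold change of all genes at -0.08, against -0.29 in edgeR, called 335 higher and 257 lower, so that 56.6% of its calls were higher, against 44.6% in edgeR.

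The chemokine gene Ccl21a had the highest fold change. It stood at 28868 CPM in running, 24954 in sedentary and 19129 in untreated gated cells, against 130.1, 13.3 and 3.94 CPM in other cells. The log2 fold change was 9.95 ± 0.18 (SE from the F statistic), with the edgeR adjusted p at the smallest printable value, 1.0e-300. All 3 gated levels were far above all 3 levels of other cells. A near-copy, the row deposited as Ccl21c, had 25, 3 and 3 UMIs in gated cells against 3, 0 and 0 in other cells, a pooled ratio of 853 (95% counting interval 266 to 4362). Its Ensembl identifier, ENSMUSG00000096271, is named Ccl21b in GENCODE M21. The transcripts of Ccl21a and that gene were identical at 99.5% of aligned bases, with 2 mismatches. They are 870 and 402 bases long, and 468 bases of the alignment were gaps. The split of reads between these copies is uncertain, and how reads were assigned was not tested.

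Several of the next highest genes encode transcription, signalling or polarity proteins. Pard6g, which encodes a partner of the cell polarity protein PAR3, stood at 816.0 CPM in running, 917.1 in sedentary and 829.6 in untreated gated cells, against 2.76, 0.541 and 1.65 CPM in other cells (log2 fold change 8.84 ± 0.31). It was detected in 61 of the 75 cells, and its gated levels were even across the libraries. Maf, a leucine zipper transcription factor, stood at 492.7, 434.4 and 841.8 CPM, against 2.24, 1.80 and 1.02 CPM (8.46 ± 0.35). Tbx1, a T-box factor that mouse lymphatic vessels need for their growth, had 23, 2 and 10 UMIs in gated cells against 6, 2 and 1 in other cells (7.95 ± 0.66). Dtx1, which encodes the Notch pathway ubiquitin ligase Deltex 1, had 39, 5 and 22 UMIs against 6, 0 and 4 (8.80 ± 0.56).

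Secreted and membrane proteins made up most of the other highest genes. Igfbp5, which encodes a binding protein for insulin-like growth factors, stood at 3118, 3041 and 5331 CPM in running, sedentary and untreated gated cells, against 37.96, 10.6 and 24.5 CPM in other cells (log2 fold change 7.25 ± 0.17). Il7, the gene of the lymphocyte survival cytokine interleukin 7, stood at 184.8, 193.1 and 195.2 CPM, against 1.21, 0.901 and 0.636 CPM (7.61 ± 0.57), and it was found in 27 gated cells with at most 4 UMIs each. Slc45a3, a solute carrier gene, and Sh3gl3, which encodes the endocytic protein endophilin A3, had log2 fold changes of 9.28 ± 0.55 and 9.22 ± 0.64 and were detected in 39 and 28 gated cells. The matrix protein genes Tgfbi and Abi3bp, the siderophore-binding lipocalin gene Lcn2, the growth factor gene Ptn and the membrane glycoprotein gene Gpm6a ranged from 7.60 for Tgfbi to 6.53 for Gpm6a. All 15 of the highest genes were above other cells in each of the 3 libraries, which the naming rule required. Every one of them and of the 15 lowest kept its direction and call under each of the alternatives in which it could be fitted. They were chosen as the most extreme genes. Of 126 named or listed genes called against other cells, at least 36 lost the call under some alternative.

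**Figure D3:**
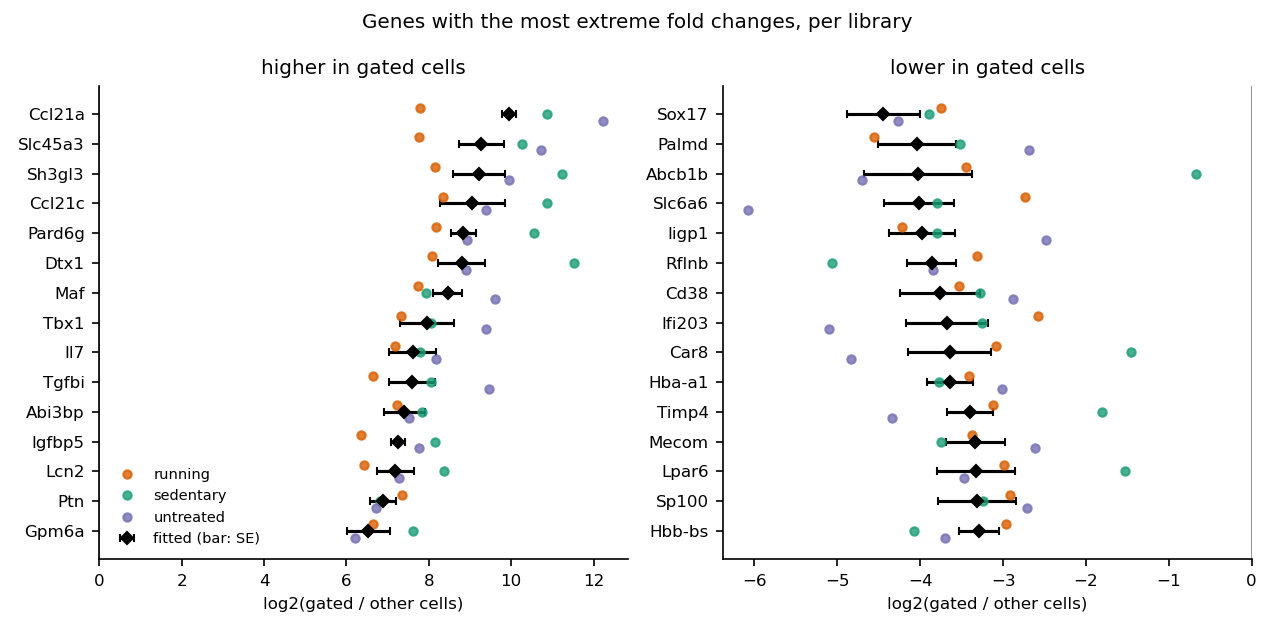
Circles give the log2 ratio of gated over other cells in each library (prior count of 0.5). Diamonds give the fitted log2 fold change for the 15 highest and the 15 lowest genes that passed the test. Bars are the SE from the F statistic and not a spread over libraries. Points for sedentary gated cells rest on 10 cells, and several of the lowest genes had no UMI there.

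The 15 lowest genes had log2 fold changes of -4.44 to -3.29. Sox17, a transcription factor gene of arterial endothelium, had 3, 0 and 1 UMIs in running, sedentary and untreated gated cells, where its level in other cells would give 83.5 in all (log2 fold change -4.44 ± 0.44). Palmd, which encodes the cytosolic protein palmdelphin, had 1, 0 and 3 UMIs where 63.6 would be expected. Slc6a6, the taurine transporter gene, had 5, 0 and 0 where 77.2 would be expected, and Mecom, a zinc finger transcription factor gene, had 4, 0 and 5 where 87.2 would be. Abcb1b, an efflux pump gene, had 2 UMIs where 31.8 would be expected, a ratio of 0.0630 (95% counting interval 0.00762 to 0.228). None of these genes had more than 5 UMIs in the gated cells of any library.

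Iigp1, an interferon-inducible GTPase gene, stood at 23.1, 0 and 36.6 CPM in gated cells against 503.96, 336.4 and 239.1 CPM in other cells (log2 fold change -3.98 ± 0.40). Ifi203 and Sp100, both induced by interferon, had log2 fold changes of -3.68 ± 0.49 and -3.31 ± 0.47. Timp4, which encodes an inhibitor of metalloproteinases, stood at 53.9, 241.3 and 36.6 CPM in gated cells against 503.96, 931.5 and 867.4 CPM in other cells (-3.40 ± 0.28). The summed levels of the globin genes Hba-a1 and Hbb-bs fell by 3.64 ± 0.27 and 3.29 ± 0.24 on the log2 scale. Single running other barcodes held up to 1886 Hba-a1 and 2691 Hbb-bs UMIs, of 8778 and 10581. Hba-a1 was detected in 15 of 41 running, 2 of 10 sedentary and 0 of 24 untreated gated cells. In other cells the shares were 24.8%, 25.9% and 1.70%. Hbb-bs was detected in 20 of 41, 2 of 10 and 0 of 24, against 38.3%, 39.9% and 1.95%. Only in the running library was detection higher in gated cells, at 36.6% and 48.8%. The summed level of 5 erythrocyte markers was 623.6, 434.4 and 12.2 CPM in gated cells against 5208, 5942 and 175.4 CPM in other cells. The level thus followed the library as well as the cell class. The parts of the library and of single barcodes high in globin in the globin difference were not tested.

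Groups of genes were then followed by role, and these lists were chosen with earlier results of these data known. Their counts are to be read against 3.65% of all genes higher, 4.53% lower and a median log2 fold change over all genes of -0.29. Among 12 lymphatic transcription factor genes tested besides Prox1, 7 were higher, 1 was lower and 4 did not pass the test, with a median of 2.06. Beside Maf and Tbx1, the higher genes included Meis2, a homeobox factor gene with 11, 6 and 11 UMIs in running, sedentary and untreated gated cells against 6, 1 and 5 in other cells (log2 fold change 7.59 ± 0.66). Nr2f2, the gene of the venous and lymphatic nuclear receptor COUP-TFII, stood at 323.3, 820.5 and 573.4 CPM in gated cells against 65.4, 66.2 and 132.8 CPM in other cells (2.41 ± 0.23). Foxc2 had 2, 0 and 8 UMIs against 7, 2 and 8 (5.33 ± 0.89), and 8 of its 10 UMIs were in the untreated library, without which it had too few UMIs to test. Sox18, which acts upstream of Prox1 in the mouse embryo, had 6, 0 and 4 UMIs in gated cells where 17.3 would be expected and did not pass the test (-0.83 ± 0.48, adjusted p = 0.43). Without the running library or without the untreated library, 4 of 10 genes tested on this list were higher.

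Of 10 genes tested in the VEGF-C and angiopoietin pathway, 2 were higher and 4 lower, with a median log2 fold change of -1.40 (-0.86 with a member at 0 set to a floor of 3 UMIs). Flt4 had a log2 fold change of 3.35 ± 0.22 (adjusted p = 2.1e-47), and all 3 gated levels were above all 3 levels of other cells. Nrp2, the VEGF-C co-receptor gene, stood at 346.4, 241.3 and 683.2 CPM in gated cells against 181.8, 150.2 and 471.4 CPM in other cells (0.66 ± 0.21). The gated level was the higher in each library, but the ranges overlapped across libraries. The Nrp2 call was lost without the running library (edgeR adjusted p = 0.71) and without the untreated library (edgeR adjusted p = 0.084). DESeq2 did not call Nrp2 either (adjusted p = 0.47). Kdr, the gene of the main blood-vessel VEGF receptor, stood at 415.7, 530.9 and 536.8 CPM against 947.2, 999 and 666.9 CPM (-0.86 ± 0.17). Its call was lost without the running library (edgeR adjusted p = 0.29) and in DESeq2 (adjusted p = 0.096). Vegfc itself had 2 UMIs in gated cells where 19.8 would be expected, a ratio of 0.101 (95% counting interval 0.0122 to 0.365), and lost its call without the running library (adjusted p = 0.070). The vascular phosphatase gene Ptprb fell by 2.72 ± 0.22 on the log2 scale. The angiopoietin receptor genes Tek and Tie1 did not pass the test, at -0.80 ± 0.31 and -0.47 ± 0.24.

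**Figure D4:**
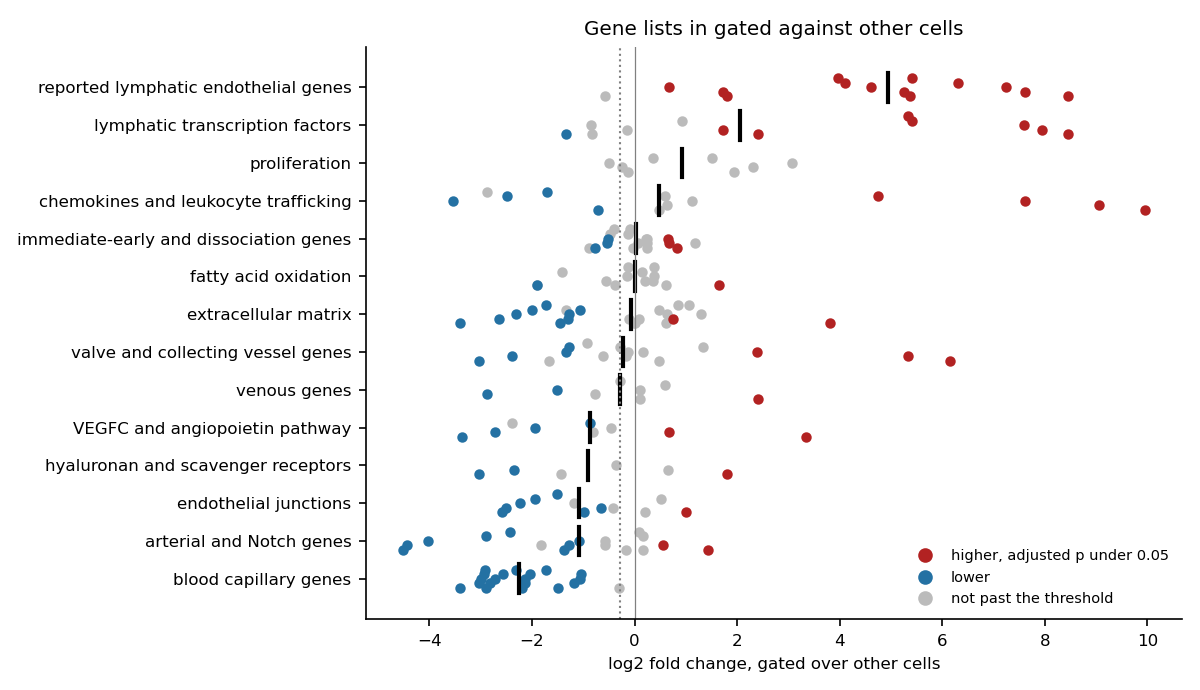
Log2 fold change of gated over other cells for each tested member of the gene lists, coloured by call; genes with no UMI in gated cells are not drawn. Black bars give list medians, with genes at 0 set to a floor of 3 UMIs, and the dotted line the median of all genes at -0.29; the transcription factor list centres at 2.06 and the blood capillary list at -2.25.

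Among 15 genes tested for chemokines and leukocyte traffic, 4 were higher and 6 lower, with a median of 0.48. Beside both Ccl21 rows and Il7, Sema3a, the gene of a secreted guidance cue for axons and vessels, was higher, with 5, 2 and 6 UMIs in running, sedentary and untreated gated cells where 0.496 would be expected in all (log2 fold change 4.75 ± 0.76). Cxcl12, the CXCR4 ligand gene, stood at 284.8, 144.8 and 365.99 CPM in gated cells against 1550, 1907 and 1590 CPM in other cells (-2.49 ± 0.19). Vcam1, the gene of a leukocyte adhesion molecule, had no UMI in gated cells where 14.2 would be expected, which makes it at least 4.74-fold lower at a floor of 3 UMIs over the gated cells. Its call was lost without the untreated library (adjusted p = 0.051). Icam1 stood at 238.6, 96.5 and 85.4 CPM against 107.1, 86.7 and 103.9 CPM and did not pass the test (0.60 ± 0.31). Ccl19, the other CCR7 ligand gene, was at 0 in all 75 gated cells. Without the untreated library 3 genes of this list were lower in place of 6.

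Of 6 hyaluronan and scavenger receptor genes tested besides Lyve1, 1 was higher and 2 lower, with a median of -0.90, and Stab1 was the higher one. It encodes the scavenger receptor stabilin 1 and stood at 331.0, 337.9 and 317.2 CPM in gated cells against 106.1, 100.4 and 69.7 CPM in other cells (log2 fold change 1.80 ± 0.26). Cd36, the fatty acid translocase gene of capillaries, and Scarb1, the lipoprotein receptor gene, fell by 3.04 ± 0.19 and 2.35 ± 0.30 on the log2 scale. Of 16 genes of valves and collecting vessels tested, 3 were higher and 4 lower, with a median of -0.22. Cldn11 had 5, 3 and 3 UMIs in gated cells where 0.155 would be expected in all (6.15 ± 0.89), and Foxc2 and the integrin gene Itga9 were the others. Without the untreated library none of the 3 was higher, as Cldn11 and Foxc2 then had too few UMIs to test, and without the running library 1 was. In place of 4 lower genes, 1 was lower without the untreated library, without the running library and in DESeq2. The connexin genes Gja1 and Gja4 did not pass the test, at -0.16 ± 0.22 and 0.17 ± 0.38.

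Of 12 junction genes tested, 7 were lower, 1 was higher and 4 did not pass the test, with a median of -1.08. Cldn5, which encodes the tight junction protein claudin 5, stood at 2448 CPM in running, 3330 in sedentary and 2013 in untreated gated cells, against 1407, 1233 and 964.4 CPM in other cells (log2 fold change 1.01 ± 0.14), and all gated levels exceeded all others. Cdh5, the VE-cadherin gene, stood at 377.2, 579.2 and 414.8 CPM against 1423, 1590 and 1685 CPM (-1.93 ± 0.18). Pecam1, which encodes CD31, the antigen of the sort, stood at 508.1, 675.7 and 622.2 CPM against 1047, 1154 and 1121 CPM (-0.98 ± 0.17). Esam and Jam2, both adhesion molecule genes of tight junctions, fell by 2.52 ± 0.24 and 2.59 ± 0.26 on the log2 scale. F11r, the JAM-A gene, did not pass the test (0.20 ± 0.19).

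Of 22 matrix genes tested besides Mmrn1 and Reln, 2 were higher and 9 lower, with a median of -0.06. Timp2, a metalloproteinase inhibitor gene, stood at 785.2, 1014 and 1135 CPM in gated cells against 55.4, 47.1 and 90.3 CPM in other cells (log2 fold change 3.81 ± 0.20), which is the reverse of Timp4. Timp3 had a smaller difference of 0.75 ± 0.15 that lost its call without the running library (edgeR adjusted p = 0.60) and in DESeq2 (adjusted p = 0.44). The basement membrane collagen genes Col4a1 and Col4a2 fell by 1.30 ± 0.17 and 2.00 ± 0.20 on the log2 scale, and the matricellular genes Sparc and Sparcl1 by 2.31 ± 0.17 and 2.64 ± 0.20. The laminin gene Lama4 and the nidogen gene Nid1 did not pass the test, at 0.63 ± 0.31 and -0.11 ± 0.34.

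A list of 16 genes reported elsewhere as lymphatic endothelial had 14 tested members, of which 13 were higher and none lower, with a median of 4.94. The list was recalled from published work on lymphatic endothelium. Nts, the neurotensin gene, stood at 377.2, 627.5 and 244.0 CPM in gated cells against 6.38, 18.6 and 6.74 CPM in other cells (log2 fold change 5.37 ± 0.35), and was detected in 26 cells. Cp, the ceruloplasmin gene, stood at 292.5, 772.3 and 341.6 CPM against 6.38, 5.05 and 17.9 CPM (5.26 ± 0.34). Fgl2, the gene of a fibrinogen-like protein, stood at 1001, 820.5 and 1525 CPM against 18.5, 6.67 and 14.1 CPM (6.30 ± 0.22). The tetraspanin genes Cd63 and Cd9 had log2 fold changes of 3.97 ± 0.28 and 1.73 ± 0.15. Igf1 was the member that did not pass the test (-0.58 ± 0.73).

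Blood capillary genes formed the opposite group, with 19 of 20 tested members lower, none higher and a median of -2.25. Fabp4, a fatty acid binding protein gene, stood at 2564 CPM in running, 2365 in sedentary and 1183 in untreated gated cells, against 12170, 12967 and 12075 CPM in other cells (log2 fold change -2.73 ± 0.14). Ly6c1, a surface antigen gene of capillaries, stood at 438.8, 386.1 and 73.2 CPM against 2026, 3097 and 1857 CPM (-2.95 ± 0.19). Flt1, the VEGF receptor 1 gene, stood at 169.4, 48.3 and 231.8 CPM against 1095, 1228 and 1551 CPM (-2.89 ± 0.21). Gpihbp1, which anchors lipoprotein lipase, fell by 1.74 ± 0.17 and the aquaporin gene Aqp1 by 2.13 ± 0.15. Cavin2, a caveolar coat gene, was the exception at -0.31 ± 0.15. The summed level of 10 capillary markers in gated cells was 6051, 5020 and 3148 CPM against 25212, 27963 and 23613 CPM. In the untreated library 117 of the 258 capillary UMIs were in 1 gated cell, which had 59 mural UMIs and no Ccl21a. That cell also held 61 of the 97 Fabp4 UMIs of untreated gated cells. The median gated cell had 4843, 4585 and 844.6 CPM of the capillary markers. The part of free RNA in these gated levels was not tested.

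Of 17 arterial and Notch genes tested, 8 were lower and 2 higher, with a median of -1.09. Sema3g and Gja5, an arterial semaphorin gene and a connexin gene, had 1 gated UMI each where 22.1 and 15.95 would be expected, with ratios of 0.0452 (95% counting interval 0.00114 to 0.252) and 0.0627 (0.00159 to 0.350). Stmn2, the gene of a microtubule regulator that the list carried as arterial, went the other way at 746.7, 772.3 and 841.8 CPM in gated cells against 254.5, 350.3 and 281.9 CPM in other cells (log2 fold change 1.43 ± 0.17), and 48 of the 50 gated cells that had it also had Ccl21a. Without the running library 3 genes of this list were lower, and likewise 3 without the untreated library. Of 10 venous genes, Nr2f2 was higher and 3 were lower, with a median of -0.52 (-0.28 with members at 0 set to the floor). Vwf, the von Willebrand factor gene, had 10, 0 and 6 UMIs where 43.3 would be expected (-1.51 ± 0.35). DESeq2 did not call Vwf (adjusted p = 0.068), and without the untreated library none of the 3 lower calls held.

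Metabolic, early-response and cell cycle genes gave few calls. Of 14 fatty acid oxidation genes tested, 1 was higher and 1 lower, with a median of 0.01. The higher one was Etfa, an electron transfer flavoprotein gene, with 19, 2 and 13 UMIs in gated cells where 10.5 would be expected (log2 fold change 1.65 ± 0.37), and neither call held without the running library or without the untreated library. Cpt1a, the carnitine palmitoyltransferase gene linked in mice to lymphatic growth, had 2 UMIs where 7.38 would be expected, a ratio of 0.271 (95% counting interval 0.0327 to 0.983), and did not pass the test (adjusted p = 0.29). Of 18 immediate-early genes, often raised by tissue dissociation, 3 were higher and 3 lower, with a median of 0.02, and DESeq2 called none of the 18. Fos stood at 4473, 2896 and 4611 CPM in gated cells against 2051, 1376 and 3255 CPM in other cells (0.83 ± 0.13). Of 9 proliferation genes tested none passed in edgeR or DESeq2. Mki67 and Top2a had 2 UMIs each in gated cells, all in the untreated library, where 0.533 and 0.408 would be expected over all libraries. Ccnb2 had 3 where 0.318 would be, a ratio of 9.43 (95% counting interval 1.78 to 32.3). Birc5, Mcm2 and Mcm5 had 0, 1 and 1 where 0.479, 1.12 and 1.34 would be. Counts this low do not show that cycling cells were absent.

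Veins are the blood vessels closest to lymphatic endothelium in origin, and the gated cells were therefore also set against 790 barcodes gated on 6 venous genes (Vwf, Vcam1, Selp, Sele, Ackr1 and Lrg1; 196 running, 172 sedentary and 422 untreated). Of 9240 genes tested, 392 were higher in lymphatic-gated cells (4.24%) and 348 lower (3.77%), or 8.01% in either direction. With at least 100 UMIs required, 258 of 4078 genes were higher and 387 lower. Without the running library the counts were 176 and 161, without the untreated library 201 and 197, and with DESeq2 172 and 174. Dtx1 and Sh3gl3 had 66 and 47 UMIs in lymphatic-gated cells and none in vein-gated cells. At a floor of 3 UMIs over the vein-gated cells they were 234-fold and 167-fold higher. The lower bounds of their 95% counting intervals were 185-fold and 131-fold. Pard6g had 106, 19 and 68 UMIs against 0, 0 and 3, a pooled ratio of 686 (95% counting interval 231 to 3354). Maf, Slc45a3, Igfbp5 and both Ccl21 rows completed the 8 highest.

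The genes lowest in lymphatic-gated cells included endocytic, lipid transfer and cytokine receptor genes. Clu, the clusterin gene, had 2, 0 and 0 UMIs in lymphatic-gated cells against 142, 55 and 156 in vein-gated cells, a ratio of 0.0526 (95% counting interval 0.00634 to 0.191) to the expected count. Ptgs1, the cyclooxygenase 1 gene, had 1, 0 and 2 against 157, 107 and 314, a ratio of 0.0564 (0.0116 to 0.166). Ehd4, which encodes an endocytic ATPase, stood at 69.3, 48.3 and 61.0 CPM against 844.4, 902.5 and 1022 CPM (log2 fold change -3.75 ± 0.28). Pltp, the phospholipid transfer protein gene, and Csf2rb, a cytokine receptor subunit gene, were lower by 3.63 ± 0.46 and 3.89 ± 0.68 on the log2 scale. Plvap, the gene of the fenestral diaphragm protein, had 17, 4 and 11 UMIs against 1126, 979 and 1508 (-3.32 ± 0.21).

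Some list genes stood differently against veins than against all other cells. Nr2f2, which veins express as well, had a smaller log2 fold change of 0.70 ± 0.21 that lost its call without the running or the sedentary library. DESeq2 gave 0.52 for Nr2f2 and did not call it (adjusted p = 0.65). Cldn5 and Flt4 had larger values, at 2.28 ± 0.14 and 4.32 ± 0.28. Il6st, the shared interleukin 6 receptor subunit gene, was lower by 1.57 ± 0.19 on the log2 scale against vein-gated cells and did not pass the test against all other cells (0.10 ± 0.22). On the matrix list 7 of 22 were higher, among them the laminin genes Lamb1, Lama4 and Lamc1, and 8 lower, among them Bgn, the biglycan gene, at -2.26 ± 0.25. Without the running library 2 were higher and 6 lower. Both comparisons share the gated cells, so their values only stand side by side.

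Within the gated cells, running and sedentary libraries were compared as a description, with 129900 UMIs from 41 running cells and 20718 UMIs from 10 sedentary cells. Of 1175 genes with at least 20 UMIs over both, 18.2% were at least 2-fold apart, 10.7% higher in running cells and 7.49% lower, and with at least 40 UMIs 8.70% were. For most lymphatic markers the counting interval of the ratio included 0. Lyve1 had a log2 ratio of running over sedentary of 0.21 (95% counting interval -0.36 to 0.89), Mmrn1 -0.44 (-0.99 to 0.19), Prox1 -0.56 (-1.56 to 0.73) and Flt4 0.75 (-0.34 to 2.35). Ccl21a was at 28868 CPM in running and 24954 CPM in sedentary gated cells, a log2 ratio of 0.21 (0.08 to 0.35), and in other cells the same gene differed by 3.28 (2.94 to 3.65). With at least 2 different gate genes required, the ratio for Ccl21a in gated cells was 0.38. With 1 library per group no test was possible.

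**Figure D5:**
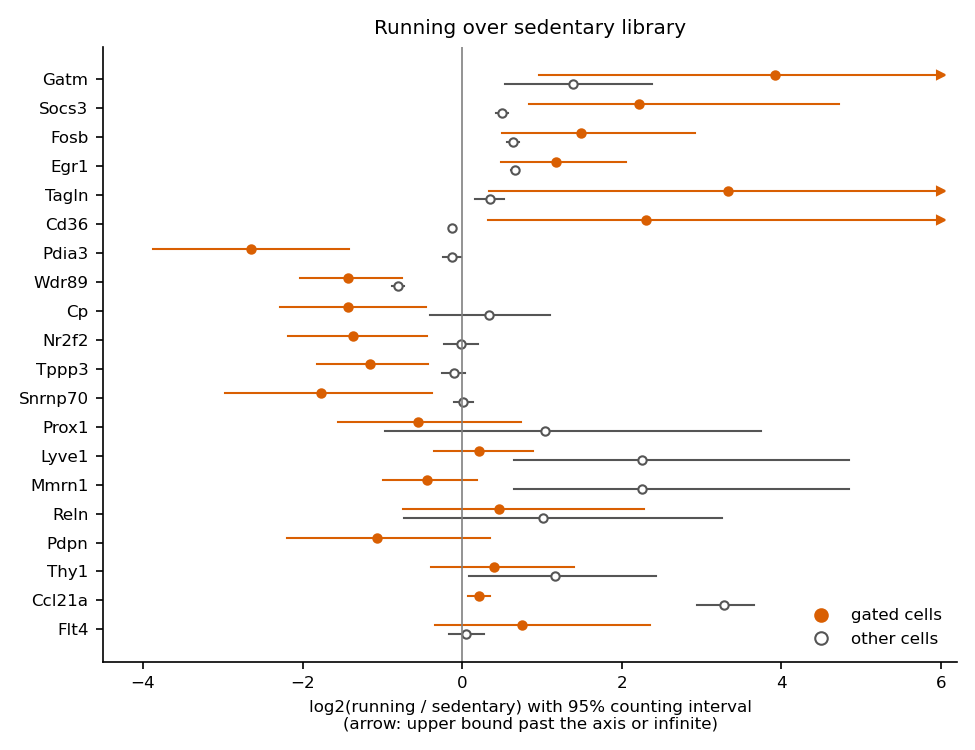
Log2 ratio of the running over the sedentary library in gated cells (filled) and in other cells (open), with exact 95% intervals for counting error. Shown are the 8 lymphatic markers and the 6 genes with the highest and the 6 with the lowest ratios, ranked by the bound nearest 0. The ranked genes had to have the same sign in running against untreated gated cells. Arrows mark upper bounds past the axis; Pdpn in other cells is left out because it had 1 UMI over both libraries.

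The 6 genes ranked highest in running gated cells were Gatm, Socs3, Fosb, Egr1, Tagln and Cd36, and Gatm and Tagln had the largest ratios, on 0 UMIs in sedentary cells. The naming rule required running to exceed the untreated library too, so the side of the untreated values is not a separate check. Socs3, which encodes an inhibitor of cytokine signalling, stood at 777.5 CPM in running against 144.8 CPM in sedentary gated cells, with 512.4 CPM in untreated cells, a log2 ratio of 2.21 (0.84 to 4.73) on 101 and 3 UMIs. Fosb, an AP-1 subunit gene, stood at 1008 against 337.9 CPM (1.48, 0.49 to 2.92) and Egr1, an early zinc finger factor gene, at 1794 against 772.3 CPM (1.17, 0.49 to 2.05). The same genes were higher in running than in sedentary other cells by 0.495 for Socs3, 0.64 for Fosb and 0.66 for Egr1. Of 15 early-response genes measured, 4 were at least 2-fold higher and none lower, and their median log2 ratio was 0.53 in gated cells and 0.41 in other cells, against -0.05 over all genes measured in gated cells. Cd36 had 46 UMIs in 22 running cells, 1 UMI in sedentary cells and 22 in untreated cells, a log2 ratio of 2.31 (0.33 to 8.21), whereas in other cells it was -0.12.

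Gatm and Tagln rested on few cells. Gatm, which encodes the first enzyme of creatine synthesis, had 47 UMIs in running gated cells and 0 in the sedentary and untreated ones, but 46 of them were in the running cell with Schwann markers, and without the gated cells that lacked Ccl21a its ratio was -1.09. Tagln, a smooth muscle gene, had 31 UMIs in running, 0 in sedentary and 10 in untreated gated cells, found in 5 cells, and 33 of these 41 UMIs were in 4 cells that lacked Ccl21a. Tagln is itself on the mural list.

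Lower in running gated cells were genes of mixed kinds, again named only where running was also below the untreated library. Pdia3, the gene of a protein disulfide isomerase of the endoplasmic reticulum, stood at 100.1 CPM in running against 627.5 CPM in sedentary gated cells and 158.6 CPM in untreated cells, a log2 ratio of -2.65 (-3.88 to -1.42) on 13 UMIs in each library. Nr2f2 stood at 323.3 against 820.5 CPM (-1.37, -2.19 to -0.44), with 573.4 CPM in untreated cells, and Cp at 292.5 against 772.3 CPM (-1.43, -2.28 to -0.46). Tppp3, which encodes a tubulin-binding protein, stood at 546.6 against 1207 CPM (-1.16, -1.82 to -0.42), and the untreated cells were close to the sedentary ones at 1257 CPM. In other cells Nr2f2, Tppp3 and Pdia3 differed by -0.02, -0.11 and -0.13. Wdr89, a WD repeat protein gene, and Snrnp70, a splicing factor gene, had log2 ratios of -1.43 (-2.04 to -0.76) and -1.77 (-2.98 to -0.38) in gated cells, and Wdr89 was also lower in running other cells (-0.81, -0.88 to -0.73).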

How the data were processed

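Gene-by-barcode UMI counts were analysed as deposited, 1 matrix per library, with 41605 gene rows. Libraries used the 10x 3' kit, version 2, per the labels' protocols. Cell Ranger 2.0.2 and GRCm38.p5 are named in the submitters' processing notes, and the authors applied no normalization that the counts show, being whole numbers. Library totals were 5983685 UMIs (running), 5625068 (sedentary) and 8002866 (untreated).

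Barcodes with at least 300 genes and at most 10% mitochondrial UMIs were kept. No doublet caller was run; an alternative left out the top 5% of barcodes by UMIs. The members and gene lists were chosen with earlier results of these data known. Counts were summed per library over gated and other cells, genes with at least 20 UMIs over the sums were tested with edgeR 4.0.16 (quasi-likelihood, library as a block because both sums come from the same library, TMM factors from genes of at least 300 CPM on average, Benjamini-Hochberg adjustment, threshold 0.05), and DESeq2 1.42.0 was the alternative, in R 4.3.3. Gate genes were not tested. The SE given for edgeR is the absolute log2 fold change divided by the square root of the F statistic, and is not computed from the spread of the library ratios. Tests were checked on simulated counts. Running against sedentary ratios used CPM with a prior count of 0.5 and exact 95% Poisson intervals, with no test. Shares have Clopper-Pearson intervals. Intervals and floors cover counting error only. Expected UMIs are the CPM of other cells applied to the gated total of each library.

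Named genes were the 15 highest and 15 lowest called against other cells, and 8 and 8 against vein-gated cells, each with 1 direction in all 3 libraries and at least 30 UMIs counted (higher) or expected (lower) in gated cells. The 6 highest and 6 lowest running to sedentary ratios, and up to 4 called members of each list plus members not called, were also named; further list members are named with their values and were chosen after these were seen. Upstream sequences and the GENCODE M21 annotation were read from reference tables.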

Additional observations from a re-analysis of the deposited data

Results flagged for a closer look

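Barcodes that failed the filters on detected genes or mitochondrial UMIs were used in no comparison, and some held Ccl21a. The 48 such barcodes of the running library had 38 Ccl21a UMIs, the 63 of the sedentary library had 7 and the 50 of the untreated library had 15. Most lay in few barcodes, with maxima of 28, 5 and 14 UMIs in 1 barcode. Of these barcodes 1 running, 2 sedentary and 0 untreated would have passed the lymphatic gate.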

How the results depend on the processing

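Each of the 30 genes named against other cells, and of the 16 named against vein-gated cells, kept its direction and call under every alternative in which it could be fitted. These genes were chosen as the most extreme, with 1 direction in all 3 libraries. With the gene lists included, at least 36 of 126 called genes lost the call against other cells under some alternative. Against vein-gated cells at least 30 of 112 did. DESeq2 called 257 genes lower than other cells, and 172 higher and 174 lower than vein-gated cells. With at least 100 UMIs, 258 genes were higher and 387 lower than vein-gated cells of 4078 tested, which turns the balance of 392 higher and 348 lower among 9240 genes. Leaving out 1 library at a time gave 178 to 370 genes higher and 262 to 549 lower than other cells, and 176 to 364 higher and 161 to 333 lower than vein-gated cells, the fewest without the running library. Without the replicate block (the pairing of both sums within a library), 449 genes were higher and 551 lower than other cells, and 347 and 309 than vein-gated cells. With at least 40 UMIs, 8.70% of genes were at least 2-fold apart between running and sedentary gated cells. The ratio for Gatm turned to -1.11 with at least 2 different gate genes, -1.03 without gated cells carrying fibroblast markers and -1.09 without gated cells lacking Ccl21a, an alternative chosen after seeing the data. Each of these leaves out the 1 cell that held 46 of its 47 UMIs. The share of gated cells in running minus sedentary libraries stayed between 0.879 and 1.11 percentage points. The 10 sedentary gated cells, with 20718 UMIs, limit every running to sedentary ratio. Causes of the other changes were not tested.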
